A study of Mus musculus with 7 samples.

Results

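Cluster 2 was 1 of the 6 groups into which the authors sorted single neural stem and progenitor cells (NSPCs) grown from the adult mouse dentate gyrus (DG), and it was led by transcripts of the DNA replication machinery and of the replication-dependent histones. Its members were taken as every cell whose deposited name carries the authors' cluster number 2, which gave 3260 of 14912 cells (21.9%). The cells came from 1 droplet library that mixed 3 primary cultures in equal numbers, 2 female and 1 male, from C57Bl6J mice aged 6 to 9 weeks. The cultures were kept at passages 6 to 15 on coated plates without serum, with 20 ng/ml each of 2 mitogens, epidermal growth factor and basic fibroblast growth factor. Separate bulk RNA libraries held 4 such cultures without mixing (from females, F1 and F2, and from males, M1 and M2, aged 6 to 8 weeks) and the whole DG of 2 mice aged 7 to 9 weeks (female F1, male M2). No cell carries the name of its culture, so the mixed library counts as 1 sample, and all values across clusters are descriptions without a test. All cultured cells were passaged under growth factors and none came straight from tissue.

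A dividing cell copies its genome in S phase. Before S phase the MCM helicase is loaded onto origins with the help of Cdc6 and Cdt1, and geminin then blocks renewed loading; at the fork the DNA polymerases work with the sliding clamp PCNA, and ligase I joins the fragments of the lagging strand. New DNA is packed at once, and the replication-dependent histone genes supply the protein for it. Their transcripts end in a stem-loop in place of a poly(A) tail and are made and degraded in step with S phase. Genes of S phase are classically under E2F factors, and genes of G2 and mitosis under the DREAM and B-Myb–MuvB complexes, which bind an element called CHR, together with NF-Y at CCAAT boxes.

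The promoters of 3 genes are shown because they carry these elements in different combinations and because the genes differ in where their transcripts peaked among the clusters. Pclaf encodes a small partner of PCNA, Top2a the topoisomerase that untangles sister chromatids, and Hist1h1b a linker histone. Each line gives 200 bases before and 10 bases from an annotated start in RefSeq (GRCm38.p6), 5′ to 3′ on the gene's strand, and capitals mark CHR (TTTGAA), E2F (TTTNNCGC) and the box spelled CCAAT, each on either strand. They also mark the letters TATAAA of the so-called TATA box, again on either strand. The Pclaf window lies at chr9:65890123-65890332 on the plus strand, with CCAAT letters at -66 and -41 and E2F letters at -5 from the start.
Pclaf: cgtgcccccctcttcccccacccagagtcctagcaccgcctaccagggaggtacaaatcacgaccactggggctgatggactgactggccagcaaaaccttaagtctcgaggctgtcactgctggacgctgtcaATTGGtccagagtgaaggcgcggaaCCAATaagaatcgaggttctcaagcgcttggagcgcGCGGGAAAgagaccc
The Top2a window lies at chr11:99024180-99024389 on the minus strand, with CHR letters at -179 and -23 and CCAAT letters at -189, -149, -98, -78 and -58. Outside the window, CCAAT letters also lie at -227.
Top2a: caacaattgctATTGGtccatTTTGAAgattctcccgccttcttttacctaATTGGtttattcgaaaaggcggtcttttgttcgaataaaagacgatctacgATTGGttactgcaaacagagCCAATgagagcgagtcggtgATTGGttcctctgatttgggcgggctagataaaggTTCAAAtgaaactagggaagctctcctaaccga
The Hist1h1b window (H1f5 in RefSeq) lies at chr13:21780616-21780825 on the minus strand, with CCAAT letters at -168, -66 and -53 and a TATA box at -28. Outside the window, Hist1h1b also has CHR letters at -230 and E2F letters at 38, both within the longer stretch counted below.
Hist1h1b: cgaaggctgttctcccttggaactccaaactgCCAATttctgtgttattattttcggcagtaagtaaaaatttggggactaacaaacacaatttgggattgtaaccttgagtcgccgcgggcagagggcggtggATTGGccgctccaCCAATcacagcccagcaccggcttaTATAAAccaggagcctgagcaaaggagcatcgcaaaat

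Cells of cluster 2 held a median of 4731 UMIs (unique transcript molecules, range 2004 to 7644), against 3845 in all other cells together. Among the other clusters the median ran from 3431 in cluster 1 to 5270.5 in cluster 4. Levels are therefore given as UMIs per 10000, summed over the cells of a cluster, and shares of cells were taken after every cell was thinned to 2000 UMIs. After thinning, Xist, the transcript of the inactive X chromosome, was found in 49.7% of cluster 2 cells and 46.2% of other cells, and 4 Y-linked genes together in 8.80% and 8.97% (60.3%, 57.8%, 17.6% and 15.4% before thinning). Between clusters the thinned Xist share ran from 36% (cluster 1) to 61.8% (cluster 5), and values were also computed in the 8391 cells with an Xist UMI and no Y-linked UMI (1901 in cluster 2) and in the 2063 cells with the reverse (510 in cluster 2). In the former, 509 genes were higher in cluster 2 than in all other cells by 1.5-fold or more and 111 lower, beside 449 and 232 in the latter and 429 and 85 in all cells.

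All 5 genes given as markers of the cluster were present at high levels. Pclaf stood at 6.96 UMIs per 10000 in cluster 2 (95% Poisson interval 6.83 to 7.09), and at 0.529, 2.80, 2.83, 4.63 and 0.429 in clusters 0, 1, 3, 4 and 5. Cluster 2 was its peak, 3.26-fold above all other cells. Top2a stood at 5.88 in cluster 2 and at 0.396, 1.19, 1.33, 9.46 and 0.265 in clusters 0, 1, 3, 4 and 5. Its peak was cluster 4, not cluster 2. Hmgb2, a DNA-bending chromatin protein, stood at 11.7 in cluster 2 and at 1.52, 10.4, 4.11, 15.9 and 1.35 in the others. Cluster 4 was higher again and cluster 1 was close behind cluster 2. Hist1h2ap, a core histone of the H2A class, stood at 2.13 in cluster 2 and at 0.0695, 0.125, 0.323, 0.257 and 0.0963 in the others. Its ratio to all other cells was 13.4 (counting interval 12.4 to 14.5). Dek, a histone chaperone, stood at 4.54 in cluster 2 and at 0.939, 2.05, 2.62, 2.76 and 0.943 in the others, a ratio of 2.53. Pclaf, Hist1h2ap and Dek were thus highest in cluster 2, and Top2a and Hmgb2 in cluster 4, as the plot of gene levels by cluster shows.

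**Figure D1:**
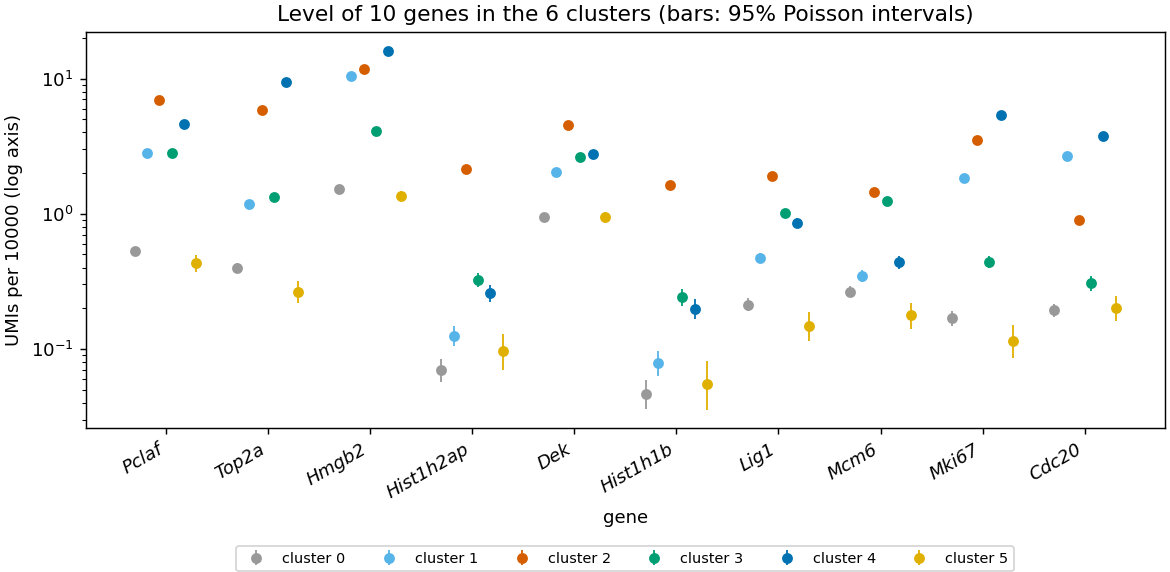
Levels of 10 genes in the 6 clusters, in UMIs per 10000 on a log axis; points are summed levels and bars 95% Poisson intervals, which cover counting error only. Hist1h2ap and Hist1h1b stand apart in cluster 2 (2.13 and 1.64), Lig1 peaks there at 1.89, and Top2a, Mki67 and Cdc20 peak in cluster 4.

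The markers did not fill the cluster evenly. In cells thinned to 2000 UMIs, Pclaf was found in 74.6% of cluster 2 cells (Clopper-Pearson interval 73.1 to 76.1) against 29.6% of all others, and Top2a in 65.6% against 21.9%. Hist1h2ap was found in 34.7% against 2.87%, so most cells of the cluster showed none at this depth. With all UMIs of each cell counted, the Hist1h2ap shares were 61.9% and 5.54%. No cell type in the library is known to lack these transcripts. The lowest thinned shares were 8.15% for Pclaf and 4.76% for Top2a in cluster 5 (median 4086 UMIs), and 1.45% for Hist1h2ap in cluster 0 (median 3749 UMIs).

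Over the 7620 genes at 0.1 UMIs per 10000 or more across all cells, 429 genes (5.63%) were higher in cluster 2 than in all other cells by 1.5-fold or more, and 85 (1.12%) were lower by as much. These shares are the background for every count below. The minimum pools cluster 2 with the rest, so a gene could pass it through its level in cluster 2. That favours genes high in cluster 2, in these counts, in the list counts and in the highest ratios. With no minimum beyond 3 UMIs, 1802 genes were higher than in all other cells and 1763 lower. The authors' clusters were made from the same genes, so the counts describe the cluster and test nothing. Against cluster 3 the shares were 4.50% higher (343 genes) and 0.892% lower (68 genes). Against cluster 4 they were 3.02% higher (230 genes) and 2.87% lower (219 genes). The median gene had a log2 ratio of 0.001, 0.008 and -0.011 in the 3 contrasts. At 1 UMI per 10000 or more, the highest ratios to all other cells belonged to Hist1h1b (14.5), Hist1h2ap (13.4), Hist1h2ae (9.60), the checkpoint adaptor Clspn (4.20), thymidine kinase Tk1 (4.01), the chromatin ATPase Atad2 (3.91), ligase I Lig1 (3.72), geminin Gmnn (3.66) and the ribonucleotide reductase subunit Rrm2 (3.38). The next were Pclaf (3.26), Dnmt1 (3.16), Mcm6 (3.07), Fam111a (2.99) and Pcna (2.94). All of these but Pclaf, Fam111a and Atad2 are on a list of replication, nucleotide or histone genes.

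Replication-dependent histones had the highest median ratio to all other cells of the lists examined. The table held 58 such entries, of which 10 passed the minimum level, and 7 of these were higher by 1.5-fold or more and none lower, with a median log2 ratio of 1.88 against 0.001 over all genes. Most histone entries were too sparse for that minimum, and 40 had 50 UMIs or more over all cells. Of these 40, 34 were higher in cluster 2, 34 had their highest level there, 1 was lower and 5 were neither, and the median ratio was 7.11. The 50 UMIs include those of cluster 2 itself. An entry could thus pass through cluster 2 alone, and these counts and the median lean towards the cluster. Cluster 2, with 21.9% of the cells and 15499019 of all 62412600 UMIs, held 18506 of 38062 histone UMIs (48.6%). Copies of a histone class are nearly identical in sequence, so how the authors' counting split reads among single entries is uncertain, while sums over a class are less so.

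By class, linker histones summed to 4.04 UMIs per 10000 in cluster 2 and 0.936 in all other cells, with all 5 counted entries higher. Hist1h1b, the leading one, stood at 1.64 in cluster 2 against 0.0463, 0.0785, 0.241, 0.198 and 0.0547 in clusters 0, 1, 3, 4 and 5. The H2A entries summed to 4.35 against 0.678, with 9 of 10 higher. H3 entries summed to 0.539 against 0.107 (7 of 9 higher), and H4 entries to 1.20 against 0.513 (4 of 4 higher). The H2B class differed: 9 of its 12 entries were higher, but its sum was 1.67 in cluster 2 and 1.89 in all other cells. The entry Hist1h2bc accounted for much of that sum, at 1.12 in cluster 2 and 1.94, 1.98, 1.20, 1.23 and 1.17 in clusters 0, 1, 3, 4 and 5. It was thus highest in clusters 0 and 1, with cluster 2 at the low end beside clusters 3, 4 and 5. The entries that were not higher were Hist2h3c2, Hist2h3c1, Hist3h2ba, Hist3h2a, Hist1h2br and Hist1h2bc. The library was primed on poly(A), and histone transcripts with a stem-loop end are captured poorly by such priming, so these levels do not measure total histone transcript.

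The histone signal was uneven among the cells of the cluster. Of 2000 UMIs per cell, at least 1 was a histone UMI in 87.2% of cluster 2 cells, against 42.9% to 59.1% in the other clusters. At least 3 were found in 42.9% of cluster 2 cells, against 3.11% in cluster 5 and 9.73% in cluster 4, the extremes of the others. At the low end, 34% of cluster 2 cells had no more histone UMIs than the median cell of cluster 3 (1 of 2000).

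**Figure D2:**
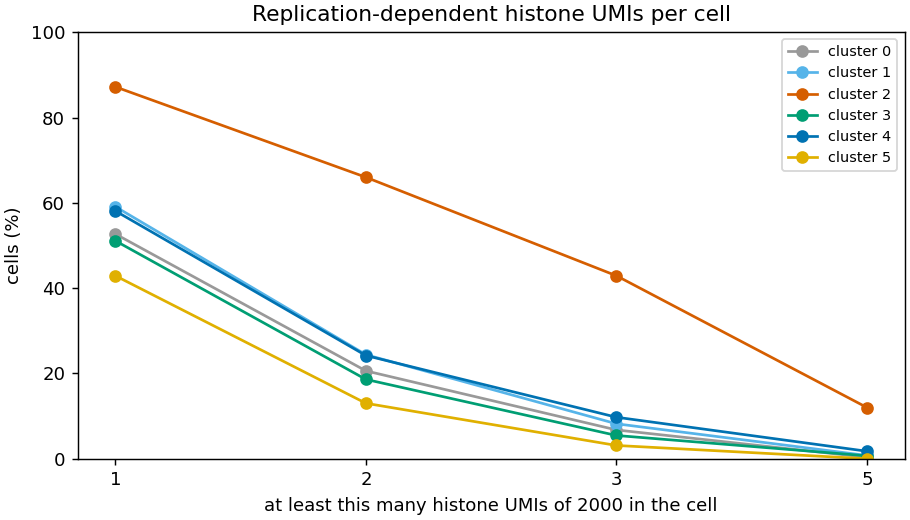
Share of cells (%) with at least 1, 2, 3 or 5 replication-dependent histone UMIs after thinning to 2000 UMIs per cell, by cluster (the steps on the x axis are categories). Cluster 2 lies above every other cluster at each step, with 66% of cells at 2 or more and 12% at 5 or more.

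Genes of replication licensing and of the fork were higher nearly throughout. Of 52 listed genes 48 passed the minimum, 47 of these were higher than in all other cells by 1.5-fold or more and none lower, and the median log2 ratio was 1.39. The list summed to 43 UMIs per 10000 in cluster 2 and to 9.20, 15.2, 34.8, 20.5 and 7.69 in clusters 0, 1, 3, 4 and 5. Cluster 2 was the peak for 38 of the 48 genes, cluster 3 for 9. Among all 7620 genes, 17% had their peak in cluster 2.

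Between clusters 2 and 3 fewer fork genes differed. In all, 13 of the 48 were higher in cluster 2 than in cluster 3 by 1.5-fold, 4 were lower, and the median log2 ratio was 0.32. The genes named here were picked and grouped by role after their values were seen. The loading factors Cdc6 and Cdt1 were lower in cluster 2 than in cluster 3, at 0.165 against 0.383 and 0.261 against 0.458 UMIs per 10000. The ubiquitin ligase adaptor Dtl (0.376 against 0.754) and the uracil glycosylase Ung (0.203 against 0.569) were the other fork-list genes below cluster 3 by 1.5-fold or more. The helicase subunits Mcm3, Mcm4 and Mcm5 differed little between these clusters, with ratios of 0.940, 0.931 and 0.947, and Mcm6 was at 1.17. Among the 13 higher genes, Lig1 stood at 1.89 against 1.00 in cluster 3, the clamp Pcna at 1.88 against 1.18, the primase subunit Prim1 at 0.850 against 0.515, the polymerase subunit Pola1 at 0.464 against 0.238, and the maintenance methyltransferase Dnmt1 at 1.5 against 0.813. Geminin (Gmnn), which blocks renewed licensing, was at 1.21 against 0.654. Of the 48 genes, 11 were higher than in both cluster 3 and cluster 4.

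The E-type cyclins separated clusters 2 and 3 from cluster 4. Ccne1 stood at 0.702 UMIs per 10000 in cluster 2, at 0.630 in cluster 3 and at 0.102 in cluster 4. Ccne2 stood at 0.483, 0.461 and 0.0337 in the same order, a ratio of 14.3 to cluster 4. Both cyclins, which activate Cdk2 at the start of S phase, were thus close in clusters 2 and 3 and lower in cluster 4. Against cluster 4, 42 of the 48 fork genes were higher and 1, the kinase activator Dbf4, was lower (0.745 against 1.43).

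Enzymes of nucleotide synthesis were also highest in cluster 2. All 16 listed enzymes passed the minimum, 11 were higher than in all other cells by 1.5-fold and none lower, with a median log2 ratio of 0.99, and 15 of the 16 peaked in cluster 2. Dut, which removes dUTP, stood at 3.54 in cluster 2 and at 0.765, 1.75, 2.13, 2.21 and 0.661 in clusters 0, 1, 3, 4 and 5. Rrm2, the regulated subunit of ribonucleotide reductase, stood at 3.14 and at 0.282, 1.13, 1.5, 1.69 and 0.306 in the others. Tk1, which salvages thymidine, stood at 1.57 and at 0.104, 0.465, 0.578, 0.857 and 0.0722. For all 3 cluster 2 was highest and clusters 0 and 5 were lowest. The purine and folate enzymes Paics, Gart and Mthfd1 differed less, with ratios of 1.35, 1.35 and 1.29.

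DNA repair and checkpoint genes were also mostly higher than in all other cells. Of 39 listed genes 25 passed the minimum, 22 were higher and none lower, and the median log2 ratio was 1.20. The deubiquitinase Usp1 stood at 1.67 (ratio 2.12), Rpa2 of the single-strand binding complex at 1.21 (2.73) and the checkpoint scaffold Topbp1 at 0.863 (2.44). The checkpoint kinase gene Chek1 was at 0.258 (2.48), and Atr and its partner Atrip were nearer to the other cells, at ratios of 1.45 and 1.14.

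Chromatin genes split by role. Of 25 histone chaperones and histone mRNA factors past the minimum, 11 were higher and none lower (median log2 ratio 0.49). The assembly factor subunits Chaf1b and Chaf1a (ratios 3.84 and 2.54), Asf1b (3.12), the acetyltransferase Hat1 (2.42), the stem-loop binding protein Slbp (2.29) and the histone carrier Nasp (2.04) were among them. Replication-independent chaperones were nearer to the other cells, with Hira at 1.22, Daxx at 1.31 and Asf1a at 1.11. Of 11 variant histones, 3 were higher (H1f0, H2afx and H2afy2, ratios 2.12, 1.69 and 1.70) and 1 was lower, the centromere histone Cenpa (0.623). Of 7 high mobility group genes 1 was higher, Hmgb2. Condensin, cohesin and topoisomerase genes counted 16 higher and none lower of 26 (median log2 ratio 0.76), led by the cohesin acetyltransferase Esco2 at 0.959 in cluster 2 and 0.0430, 0.113, 0.187, 0.506 and 0.0416 in clusters 0, 1, 3, 4 and 5. Esco2 acts on cohesin during S phase, and it was 6.06-fold above all other cells. Against cluster 4, however, 4 of these 26 genes were higher and 5 lower (median -0.12), the list summed to 33.5 in cluster 2 and 40.1 in cluster 4, and 15 of the genes peaked in cluster 4 against 9 in cluster 2. Among 25 nuclear envelope, heterochromatin and Polycomb genes 11 were higher and none lower (median 0.57), with Ezh2 at a ratio of 1.85, Suz12 at 1.70 and Eed at 1.58.

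Among 20 E2F, Myb and DREAM genes past the minimum, 10 were higher and 1 lower, with a median log2 ratio of 0.65. E2f8, an atypical repressor that E2F itself induces, had the highest ratio at 4.53 (0.330 in cluster 2 against 0.167 in cluster 3 and 0.155 in cluster 4). It stood at 0.0198, 0.0478 and 0.0131 in clusters 0, 1 and 5, so cluster 2 helped it past the minimum. Mybl2 (B-Myb) was at 0.248, with 0.139 and 0.0633 in clusters 3 and 4. E2f1 was level between clusters 2 and 3 (0.290 and 0.271) and low in cluster 4 (0.0404), while Foxm1 stood at 0.270, 0.0607 and 0.319. The 1 lower gene was Mxd4, a Max partner linked to exit from division, at 0.337 in cluster 2 and at 1.68, 0.825, 0.769, 0.467 and 1.13 in clusters 0, 1, 3, 4 and 5. It had the lowest ratio to all other cells, 0.317, among genes at 1 UMI per 10000 or more there. Of 10 G1 cyclins and kinases, 5 were higher and 1 lower. Ccnd1 and Ccnd2, the D-type cyclins that answer growth factors, were the most abundant, at 13.7 and 8.36 in cluster 2, with ratios of 0.888 and 0.809.

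**Figure D3:**
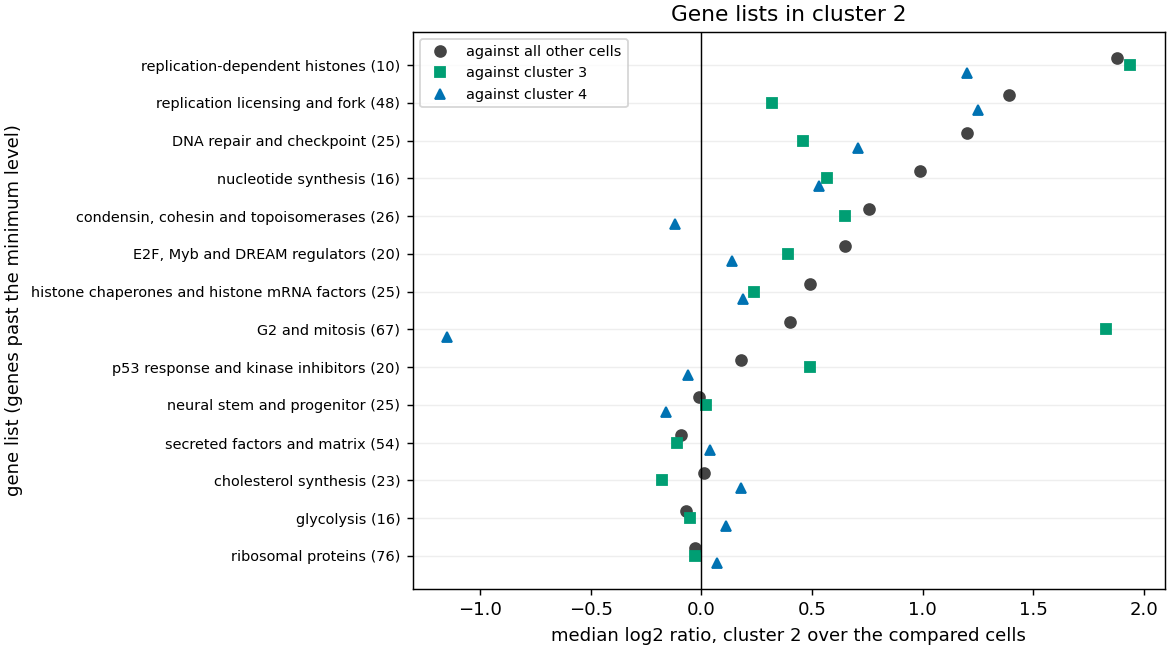
Median log2 ratio of cluster 2 over all other cells (circles), cluster 3 (squares) and cluster 4 (triangles) for 14 gene lists, with the number of genes past the minimum level beside each name. Fork genes lie at 1.39, 0.32 and 1.25, G2 and mitosis genes at 0.40, 1.83 and -1.15, and metabolic, secreted and ribosomal lists near 0.

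G2 and mitosis genes placed cluster 2 between clusters 3 and 4. Of the 70 listed genes that were in the table, 67 passed the minimum. Against cluster 3, 64 of these were higher by 1.5-fold and none lower (median log2 ratio 1.83). Against cluster 4, none was higher and 54 were lower (median -1.15). The list summed to 75 UMIs per 10000 in cluster 2 and to 23.6, 90.5, 29.8, 169 and 18.1 in clusters 0, 1, 3, 4 and 5. Cluster 4 was the peak for 64 of the 67 genes. Against all other cells together the list was mixed, with 25 higher and 4 lower and a median of 0.40.

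The proliferation antigen Mki67 stood at 3.52 in cluster 2, 0.441 in cluster 3 and 5.41 in cluster 4, and its ratio to cluster 3, 7.98, was the highest of any gene at 1 UMI per 10000 or more. Hist1h1b (6.79), Hist1h2ae (6.61), Hist1h2ap (6.60), the kinetochore motor Cenpe (6.42), Hmmr (6.05), Cenpf (5.92) and Incenp (5.26) followed. The master mitotic kinase Cdk1 was at 3.11, 0.852 and 5.42 in clusters 2, 3 and 4, and Aurkb at 0.927, 0.137 and 1.08. Genes of late G2 and mitosis were far lower than in cluster 4: Aspm had a ratio of 0.214, Cdkn3 0.231, the anaphase activator Cdc20 0.237, Cenpf 0.239, Gas2l3 0.244, cyclin B1 (Ccnb1) 0.257, Cenpa 0.262 and Ube2c 0.276. Cdc20, Cenpa and Arl6ip1 were also below the average of all other cells, at ratios of 0.638, 0.623 and 0.555. For Cdc20 and Cenpa that call was lost when means of the deposited log values replaced summed UMIs (0.793 and 0.708), and in the cells with an Xist UMI and no Y-linked UMI (0.724 and 0.684). Ratios to cluster 4 were ranked among genes at 1 UMI per 10000 or more in cluster 2, which leaves out sparser genes such as Ccne2. The highest belonged to Hist1h2ap (8.30), Hist1h1b (8.28), Hist1h2ae (6.48), Atad2 (3.75), Mcm6 (3.32), Mcm3 (3.04), Slbp (3.00) and Clspn (2.96).

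Few genes were lower in cluster 2 than in cluster 3. At 1 UMI per 10000 or more, Thrsp (0.582) and Vav3 (0.635) were past 1.5-fold, and Mxra8 (0.672), Anxa2 (0.693), Amotl1 (0.696), Btbd17 (0.703), the oligodendrocyte-lineage factor Olig1 (0.706) and Ccser2 (0.728) came next. Thrsp, a lipogenic gene used as a mark of quiescent NSPCs, stood at 1.42 in cluster 2 and at 3.62, 2.15, 2.44, 1.67 and 2.08 in clusters 0, 1, 3, 4 and 5. Cluster 2 was its lowest and cluster 0 its highest. Tsc22d1 (0.647), Btbd17 (0.661), Hist1h2bc (0.687) and Selenos (0.716) completed the lowest ratios to all other cells given here.

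In 44 genes (0.577% of 7620) cluster 2 was higher by 1.5-fold or more than all other cells, than cluster 3 and than cluster 4. The lists account for 33 of them, and the other 11, named after their values were seen, were Cenpk, Cenpu, Donson, Haus4, Itpripl1, Mdc1, Pclaf, Polk, Sdc1, Syne2 and Tcf19. Donson, a replisome factor, Polk, a translesion polymerase, and Mdc1, a DNA damage mediator, act on replicating or damaged DNA. Pclaf was at the edge, with a ratio to cluster 4 of 1.5, and was at 1.31 in the 2063 cells with a Y-linked UMI and no Xist UMI. Of the listed genes, Gdf15 is a secreted stress factor, at 1.10 in cluster 2 and at 0.396, 0.400, 0.470, 0.543 and 1.05 in clusters 0, 1, 3, 4 and 5. Mthfd2 of mitochondrial folate metabolism stood at 1.12 and at 0.323, 0.502, 0.720, 0.558 and 1.31. Both were high in clusters 2 and 5 and lower in the rest. Lower in all 3 contrasts were 8 genes, among them the histone demethylase Kdm5b at 0.193 in cluster 2 and at 0.670, 0.666, 0.387, 0.555 and 0.632 in clusters 0, 1, 3, 4 and 5, and Pdcd4 at 0.145 and at 0.548, 0.402, 0.307, 0.233 and 0.442.

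Cells of cluster 2 differed among themselves along the same axis. They were ordered by their G2 and mitosis UMIs after thinning and divided into 4 bins of 815 cells, from 1 to 10 UMIs in the first to 19 to 47 in the last. The bins are ranges, not cell types, and their median depth ran from 4531 to 4965 UMIs. Fork genes summed to 50.3, 46.3, 41.2 and 35.1 UMIs per 10000 from the first bin to the last, so that the last lay beside cluster 3 (34.8) and all lay above cluster 4 (20.5). Histones did not follow the fork genes: they summed to 9.92, 12, 12.4 and 13.3, with 3.92 and 4.75 in clusters 3 and 4. Nucleotide enzymes stayed between 20.7 and 22.2 in all 4 bins, against 13.8 and 15.3. Condensin, cohesin and topoisomerase genes went from 28.2 to 38.7. The first bin, lowest in mitotic genes, was thus already far above cluster 3 in histones.

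Single genes took different courses. Mcm6 went from 1.82 in the first bin through 1.63 and 1.38 to 1.03 in the last, and Slbp from 2.07 through 1.95 and 1.46 to 1.16. Mki67 and Top2a were not among the genes that ordered the cells, but mitotic genes vary together, so their course is a description of the order. Mki67 went from 2.12 through 3.08 and 3.97 to 4.77, and Top2a from 3.71 through 5.11 and 6.44 to 8.07. Pclaf (6.53, 7.02, 7.13 and 7.12), Dek (4.26, 4.60, 4.74 and 4.54) and Dnmt1 (1.48, 1.54, 1.48 and 1.51) were nearly level across the bins.

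**Figure D4:**
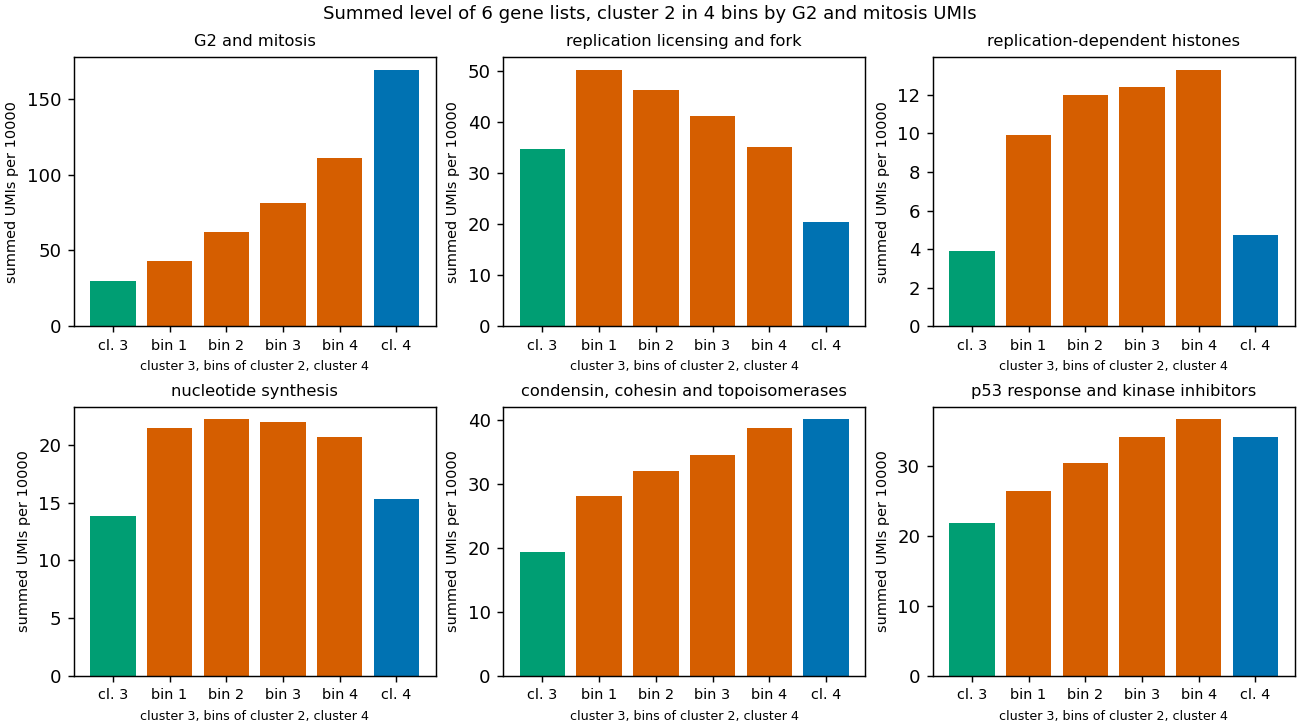
Summed level (UMIs per 10000) of 6 gene lists in cluster 3, in 4 bins of cluster 2 (815 cells each, ordered by their own G2 and mitosis UMIs) and in cluster 4; bars start at 0. The G2 and mitosis bars rise by construction, fork genes step down from 50.3 to 35.1, and histones stay between 9.92 and 13.3 while both outer clusters lie below 5.

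The boundary with the neighbouring clusters was gradual in mitotic genes. Of cluster 2 cells 9.02% had no more G2 and mitosis UMIs than the median cell of cluster 3 (6 of 2000). At the other end 11% had at least 24, the 10th percentile of cluster 4, as did 0.105% of cluster 3 cells, and 1.07% reached the median of cluster 4 (33). In fork UMIs 60.6% of cluster 2 cells were above the median of cluster 3 (7 of 2000). Doublets were not removed here, and their part in the cells at either end was not tested.

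The cell cycle inhibitor Cdkn1a, a target of p53 and a brake on S phase, was high in the cluster. It stood at 9.30 UMIs per 10000 in cluster 2 and at 5.85, 4.73, 4.38, 8.60 and 6.53 in clusters 0, 1, 3, 4 and 5, and within cluster 2 at 7.11, 9.02, 10.1 and 10.9 from the first bin to the last. Of the 20 p53 response and inhibitor genes past the minimum, 2 were higher than in all other cells and 1 lower, beside a background of 5.63% and 1.12%. Against cluster 3, 9 were higher and none lower. Besides Cdkn1a (2.12) these ratios to cluster 3 included Phlda3 at 1.87, Mdm2 at 1.68 and Cdkn2d at 3.52. Summed over the list, clusters 2 and 4 (32 and 34.1) were above clusters 0, 1, 3 and 5 (26.9, 26.5, 21.8 and 28.2). Cdkn1a is part of these sums, at 9.30 in cluster 2 and 4.38 to 8.60 in the others. The sums by themselves thus do not show a rise across the list.

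Few stem and progenitor genes differed between cluster 2 and the other cells. Of 25 such genes past the minimum, none was higher in cluster 2 than in all other cells and 1, Thrsp, was lower. Against cluster 3 none was higher and 1 lower, and against cluster 4, where 14 of the 25 peaked, 2 were higher and 2 lower. Fabp7, a lipid-binding protein of radial glia, stood at 44.1 in cluster 2 and between 39.6 and 51.2 in the other clusters, the intermediate filament gene Vim at 16.2 and between 15.2 and 19.9, and Sox2 at 1.77 and between 1.56 and 1.92. Ribosomal protein genes (76), mitochondrially encoded genes (13), cholesterol synthesis genes (23) and glycolysis genes (16) had no member past 1.5-fold in either direction against all other cells. Against cluster 4, 1 cholesterol synthesis gene was higher. Amino acid stress genes counted 1 higher of 16 and immediate-early genes 1 higher and 1 lower of 10. Of 54 genes of secreted factors and matrix, 1 was higher and 3 were lower, and the abundant ones were close to the other cells, with Ptn at 26.1 UMIs per 10000 (ratio 0.919), Lgals1 at 19.3 (0.946) and Igfbp2 at 18.9 (0.857).

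Markers of microglia and vessels were at or near 0, and those of the ventricle lining were low but found in every cluster. Of 12 listed microglial genes 1 was in the table, at a level of 0.00581 UMIs per 10000 in cluster 2 (0.00404 to 0.00875 in the others). Endothelial genes summed to 0.0161 (0.00219 to 0.0291), mural and fibroblast genes to 0.0445 (0.0347 to 0.0700) and ependymal, choroid plexus and blood genes to 0.138 (0.129 to 0.174). Nearly all of the last sum in cluster 2 was the ependymal gene Foxj1, at 0.110 to 0.145 across its 4 bins. Foxj1 stood at 0.140 in cluster 3 and 0.145 in cluster 4. Markers of neural lineages were found in every cluster. The 11 mature neuron genes in the table summed to 2.34 in cluster 2 and between 2.26 and 3.02 elsewhere, nearly all of it Map2, while Snap25 was at 0.0206. Astrocyte genes summed to 4.81 (others 4.05 to 7.07) and oligodendrocyte lineage genes to 13.6 (others 13.9 to 19.5). Intermediate progenitor and neuroblast genes summed to 13.5 (others 8.28 to 14.9). Of these lists 7, 4 and 6 genes passed the minimum, and none was past 1.5-fold against all other cells. Over all genes 5.63% were higher and 1.12% lower, so lists this short show little. Against cluster 3, 1 of the 4 oligodendrocyte lineage genes and 2 of the 6 intermediate progenitor genes were higher (4.50% of all genes). Against cluster 4, 1 of the 7 astrocyte genes was lower (2.87% of all genes).

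Promoter letters were counted over 300 bases (250 before to 50 after an annotated start), on either strand, for genes with a RefSeq promoter. E2F letters were in 90 of 348 promoters (25.9%) of genes higher in cluster 2 than in all other cells, in 8 of 69 (11.6%) of those lower, and in 11.5% of the 6195 promoters of all genes past the minimum. CHR letters were in 25.3%, 18.8% and 14.1% of the same sets. CCAAT letters were in 54%, 56.5% and 43.8%, so they were as frequent in the lower genes as in the higher. Against the neighbours the motifs parted: CHR was in 35.9% of promoters of genes higher than in cluster 3 and in 41.6% of those lower than in cluster 4, but in 14.1% of those higher than in cluster 4, where E2F was in 22.9%. Among the 35 histone promoters found, CCAAT letters were in 33 (94.3%) and the TATA box in 20 (57.1%), against 43.8% and 8.04% of promoters of all genes past the minimum. CHR letters were in 17 of the 35 (48.6%) and E2F letters in 8 (22.9%). Over all 32851 promoters of the reference table the shares were 5.17% for E2F, 17.9% for CHR, 37.4% for CCAAT and 13.6% for TATA. A match gives letters and not a binding site. Histone promoters are copies of one family, and their matches are not independent.

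Bulk libraries of 4 NSPC cultures and 2 whole DG, which did not enter the clustering, gave values with replicates for the same genes. They compare all cultured cells with tissue, not cluster 2 with other cells. Culture libraries held 9917697 to 11747408 counts and whole DG libraries 16676618 and 17351636, and each group was made with its own library kit, so an effect of the kit cannot be told apart from one of the group. In bulk RNA fewer cells of a type and less RNA per cell cannot be told apart either. By edgeR's quasi-likelihood test with Benjamini-Hochberg adjustment over 18088 genes, 6440 (35.6%) were higher in cultures and 7536 (41.7%) lower at an adjusted p under 0.05. Of the 429 genes higher in cluster 2, 420 were tested, and 330 (78.6%) were higher in cultures and 51 (12.1%) lower, with a median log2 difference of 2.00 against -0.13 over all genes. The 429 first had to pass a minimum level in cultured cells and the 18088 did not, so these shares are not alike. Of genes higher in cluster 2 than in cluster 4, 68.6% were higher in cultures, and of those lower than in cluster 4, 66.7%. Of the 85 lower genes, which passed the same minimum, 84 were tested, with 32 higher (38.1%), 33 lower (39.3%) and a median of -0.13. These values were near those over all 18088 genes.

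Among the genes that led the cluster, levels in the tissue differed. Pclaf stood at 188, 167, 137 and 158 CPM (counts scaled to TMM library sizes) in cultures F1, F2, M1 and M2 and at 0.646 and 1.03 in whole DG F1 and M2. All cultures lay above both tissues (log2 difference 7.57, SE 0.27, adjusted p 1.89e-07). Top2a stood at 345, 383, 230 and 346 CPM against 2.97 and 3.59 (6.63, SE 0.30, 5.13e-07), and Rrm2 at 612, 611, 469 and 550 against 1.61 and 2.31 (8.15, SE 0.26, 1.19e-07). Hist1h2ap stood at 283, 305, 119 and 344 CPM against 3.55 and 4.26 (6.07, SE 0.52, 1.43e-05), with culture M1 below the other cultures. Dnmt1, by contrast, stood at 341, 305, 217 and 278 CPM against 67.7 and 75.9 (1.99, SE 0.20, 3.69e-05). Dek differed least among the markers, at 176, 171, 129 and 134 CPM against 82.8 and 72.1 (0.98, SE 0.18, 0.00104). Mxd4, the gene lowest in cluster 2, stood at 64.3, 56.3, 96.4 and 109 CPM against 108 and 129, and the groups overlapped (-0.54, SE 0.26, adjusted p 0.0908); it passed the threshold with DESeq2 (0.0434) and without culture M2 (0.0270).

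**Figure D5:**
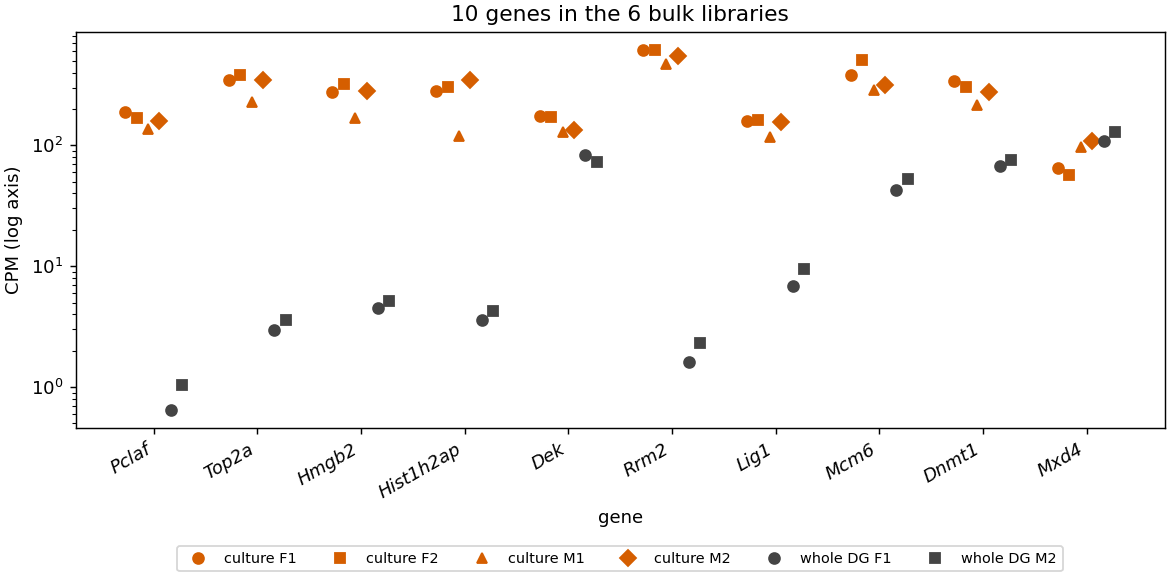
CPM of 10 genes in 4 NSPC cultures (orange) and 2 whole DG (grey) on a log axis, 1 point per library. Cultures lie above tissue for 9 genes, from Dek at 129 against 82.8 to Rrm2 at 469 against 2.31 at the nearest points, and overlap it for Mxd4.

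By list, 51 of 52 fork genes were higher in cultures and none lower (median log2 difference 3.54), as were all 16 nucleotide enzymes (2.60) and 70 of 71 G2 and mitosis genes (5.54). Replication-dependent histones were less uniform. Of 58 entries 34 were tested, and 17 of these (50%) were higher and 9 (26.5%) lower (0.85). Over all 18088 genes 35.6% were higher and 41.7% lower. Culture M1 was the lowest culture in the summed CPM of fork genes (4556, others 5516 to 5966), of G2 and mitosis genes (5014, others 8030 to 9928) and of histones (525, others 976 to 1196), and whole DG stood at 253 and 250 for histones.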

How the data were processed

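The single-cell table holds values deposited by the authors as the natural log of 1 plus UMIs per 10000. The submitters' processing notes name Cell Ranger 3.1.0 and Seurat 3.1.0 (the labels' protocol has other versions) and, against the mouse symbols of the table, GRCh38. No source used here gives the authors' filter on cells. Whole UMIs were recovered from the log values (26000272 entries, 100% within 0.01 of a whole number), and 14912 cells and 15536 genes were used without a further filter. No doublet caller was run, and doublets were kept. Levels are summed UMIs per 10000 with exact Poisson intervals, ratios have exact conditional intervals, and shares have Clopper-Pearson intervals after thinning to 2000 UMIs, which left out 0 cells. All intervals are at 95% and cover counting error only. Ratios are called past 1.5-fold among genes at 0.1 UMIs per 10000 or more over all cells, cluster 2 included.

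The bulk table holds raw gene counts deposited by the authors, made with HISAT2 2.0.6 and featureCounts per the submitters' processing notes; no source used here gives the counting options (strand, reads that match several copies). The test was edgeR 4.0.16 in R 4.3.3 (quasi-likelihood, robust, TMM, default filter on low counts, group as the only term). On simulated counts over 17427 genes with known changes the script recovered 183 of 187 changed genes that were tested, with 11 false calls. Only 200 genes were changed there, all by the same fold up or down and with a fixed dispersion. In the real libraries 35.6% of genes were called higher and 41.7% lower, so the simulation does not show how the test performs on them. The labels describe separate cultures and mice, so p-values measure the spread between them.

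Named genes are the 5 markers, the 15 highest and 10 lowest ratios to all other cells and the 8 highest and 8 lowest to clusters 3 and 4, at 1 UMI per 10000 or more in the higher cells, and the 3 most abundant members of each list; not every gene so named is reported here. Others were named after their values were seen. The cluster, the members of the gene lists and the tests were chosen with earlier results of these data known.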

Additional observations from a re-analysis of the deposited data

Results flagged for a closer look

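Of 28 genes examined for a culture that stands apart from the other 3 in bulk CPM (gap to the nearest culture over the range of the 4, above Dixon's 95% critical value), 3 had one. Chance alone marks about 1 group in 20. Hist1h2ae, an H2A gene that led cluster 2, stood at 10.7 CPM in culture M1 and at 25.3, 24.3 and 25.2 in F1, F2 and M2 (0.930 of the range). Lig1, the ligase of the lagging strand, stood at 118 CPM in M1 and at 158, 162 and 156 in the same order (0.860). In both genes culture M1 was the low one, and it was also the lowest culture in summed fork, mitosis and histone CPM. Hist1h2bc, 1 of the 6 histone entries that were not higher in cluster 2, stood at 111 CPM in culture M2. It stood at 86.8, 84.2 and 85.3 in F1, F2 and M1 (0.905).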

How the results depend on the processing

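Counts of genes past 1.5-fold depended most on the minimum level and the threshold. With no minimum beyond 3 UMIs, cluster 2 was higher in 1802 genes and lower in 1763 against all other cells, 2166 and 1802 against cluster 3, and 2379 and 1582 against cluster 4. With a minimum of 1 UMI per 10000 these counts were 34 and 6, 41 and 1, and 10 and 24. At 2-fold they were 177 and 8, 149 and 8, and 79 and 78. In the 2063 cells with a Y-linked UMI and no Xist UMI (510 in cluster 2, 198 in cluster 3, 280 in cluster 4) 232 genes were lower against all other cells, 841 higher and 443 lower against cluster 3, and 534 higher and 457 lower against cluster 4; fewer UMIs were counted there. Thinning gave 140 genes lower against all other cells, 122 lower against cluster 3 and 346 higher against cluster 4. Means of the deposited log values gave 684 higher and 45 lower against all other cells and 43 lower against cluster 3, and the ratios of Pclaf and Top2a to all other cells then stood at 5.32 and 5.81; the cause was not tested. In the cells with a Y-linked UMI, Hmgb2 fell under 1.5-fold (1.43), and Tsc22d1 (0.704), Btbd17 (0.704) and Vav3 (0.689) were no longer past it. Btbd17 also missed it after thinning (0.671), without cells over 20% mitochondrial UMIs (0.667) and by means of the log values (0.692). With the other clusters weighted equally, Btbd17 (0.716) and Tsc22d1 (0.676) missed it. In the cells with an Xist UMI and no Y-linked UMI, no count moved by over 1.5 times. Leaving out the cells with the most UMIs or over 20% mitochondrial UMIs moved no count by 1.5 times. In bulk, a test for a fold above 2 gave 3671 genes higher in cultures. Leaving out 1 library gave 5143 to 6418 higher and 6672 to 7620 lower. Thrsp (adjusted p 0.0153) missed the threshold without whole DG F1 (0.0538) or M2 (0.109). The libraries named F1 and M2 in both groups share only a name: with it as a replicate block 6098 genes were higher and 7579 lower, Mxd4 passed (adjusted p 0.0456), and the F1 minus M2 differences of cultures and whole DG had a correlation of 0.07 over 18088 genes. Single-cell values rest on 1 library, so no spread between cultures is known for them.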
